A study of Rattus norvegicus with 72 samples.

Results

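Glomeruli of the remaining left kidney were compared between 72 h and 48 h after removal of the right kidney in the rat. The groups come from the sample labels: 3 nephrectomy libraries of 72 h (replicates 1, 2 and 4) against 4 nephrectomy libraries of 48 h (replicates 1 to 4), 7 of the 72 libraries of the series. The remaining library of the 72 h group, replicate 3, was left out for its small share of reads in genes: 2.92% of its uniquely placed reads were counted in genes, against 13.3 to 65.8% (median 29.5%) in the other glomerulus libraries. Its values are given where they bear on a result.

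All animals were adult male Sprague-Dawley rats on normal chow. The operated group had its right renal vessels and ureter tied and the right kidney taken out under anaesthesia. The sham group had its right renal pedicle dissected before the wound was closed, so that it kept both kidneys. Glomeruli were microdissected, their RNA was purified with a Zymo Quick-RNA kit and made into cDNA libraries with the NuGEN Ovation RNA-seq V2 kit, and these were sequenced from a single end. Sham glomeruli of 48 h and 72 h, 4 libraries each, give the same interval of time without loss of a kidney. The labels do not say whether libraries with different numbers come from different rats, so the p-values measure only the spread between these libraries, which may be technical. They give no hour of the day for tissue collection either, so the hour of collection and the time since surgery cannot be told apart.

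The glomerulus is the filter of the nephron: a tuft of capillaries lined by fenestrated endothelium, held by mesangial cells and wrapped by podocytes, whose foot processes meet at the slit diaphragm. After loss of a kidney the remaining one takes over filtration and enlarges. Several of the genes described below are known to move quickly in any tissue: immediate early genes are transcribed within minutes of a stimulus and their messengers are short-lived, clock genes cycle over the day, and glucocorticoid targets follow the circulating hormone.

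Depth and composition differed between the 2 groups. The 48 h libraries held 9.09 to 10.96 M counts in genes (M, 1000000) and the 72 h libraries 5.93 to 37.41 M. The share of unique reads in genes was 29.5 to 33.8% at 48 h and 21.5 to 39.1% at 72 h. Podocyte markers were abundant in all 7: their mean log2 CPM (counts per 1000000 counts of the library) was 9.20 to 9.43 at 48 h and 8.61 to 9.47 at 72 h. Markers of the proximal tubule, the segment that surrounds glomeruli in the cortex, lay lower, at 2.77 to 3.44 and 2.74 to 3.77. Such means weigh scarce members as much as abundant ones. Summed, the proximal tubule markers held 1985 to 3358 CPM at 48 h and 945 to 2564 CPM at 72 h. The podocyte markers held 23804 to 28875 CPM and 17592 to 31655 CPM. Markers of the loop of Henle and distal tubule differed among libraries, with means of 5.58, 4.70, 4.57 and 1.06 at 48 h (replicates 1 to 4) and 1.90, 4.41 and 2.21 at 72 h (replicates 1, 2 and 4). Sham glomeruli showed 4.00 to 4.78 at 48 h and 1.62 to 2.76 at 72 h for the same list. Their part in the results below was not tested beyond a fit with that marker level as a covariate, which kept 11 of the 20 calls. In bulk tissue, fewer cells of a type and less RNA per cell cannot be told apart.

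Between 48 h and 72 h after nephrectomy, few glomerular genes passed the test. Those that rose included 5 immediate early genes (Fosb, Egr2, Nr4a3, Btg2 and Jund), the stress gene Ppp1r15a, the cell cycle inhibitor Cdkn1a and the clock activator Npas2. Those that fell were F3, which encodes tissue factor, the clock repressors Per2 and Per3, C1qtnf7 and Arhgap32. The most marked by p-value was F3, 6.03-fold lower at 72 h, followed by Per2, 3.77-fold lower. Podocyte, endothelial and mesangial markers gave no call.

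The test was edgeR's quasi-likelihood F test on the counts, with Benjamini-Hochberg adjustment over 20176 genes, and a gene is said to pass at an adjusted p under 0.05. The 4 groups of glomeruli at 48 h and 72 h, 15 libraries, were fitted together. After nephrectomy 20 genes passed (0.0991%), 15 higher at 72 h (0.0743%) and 5 lower (0.0248%). At an unadjusted p under 0.05 there were 2892 genes (14.3%), 1536 higher (7.61%) and 1356 lower (6.72%). All 20 had 72 h libraries wholly outside the 48 h range. In the table as a whole 6.83% of genes had their 3 libraries of 72 h above all 4 of 48 h, and 7.09% had them below. The median log2 difference over all genes was 0.12. The count of 20 rested on single libraries: it was 4 without 48 h replicate 1, 3 without 48 h replicate 3, 5 without 72 h replicate 1, 7 without 72 h replicate 4 and 165 without 72 h replicate 2, which holds the most counts in genes of the 7. With the left-out replicate 3 put back, 2 genes passed, F3 and Per2.

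**Figure D1:**
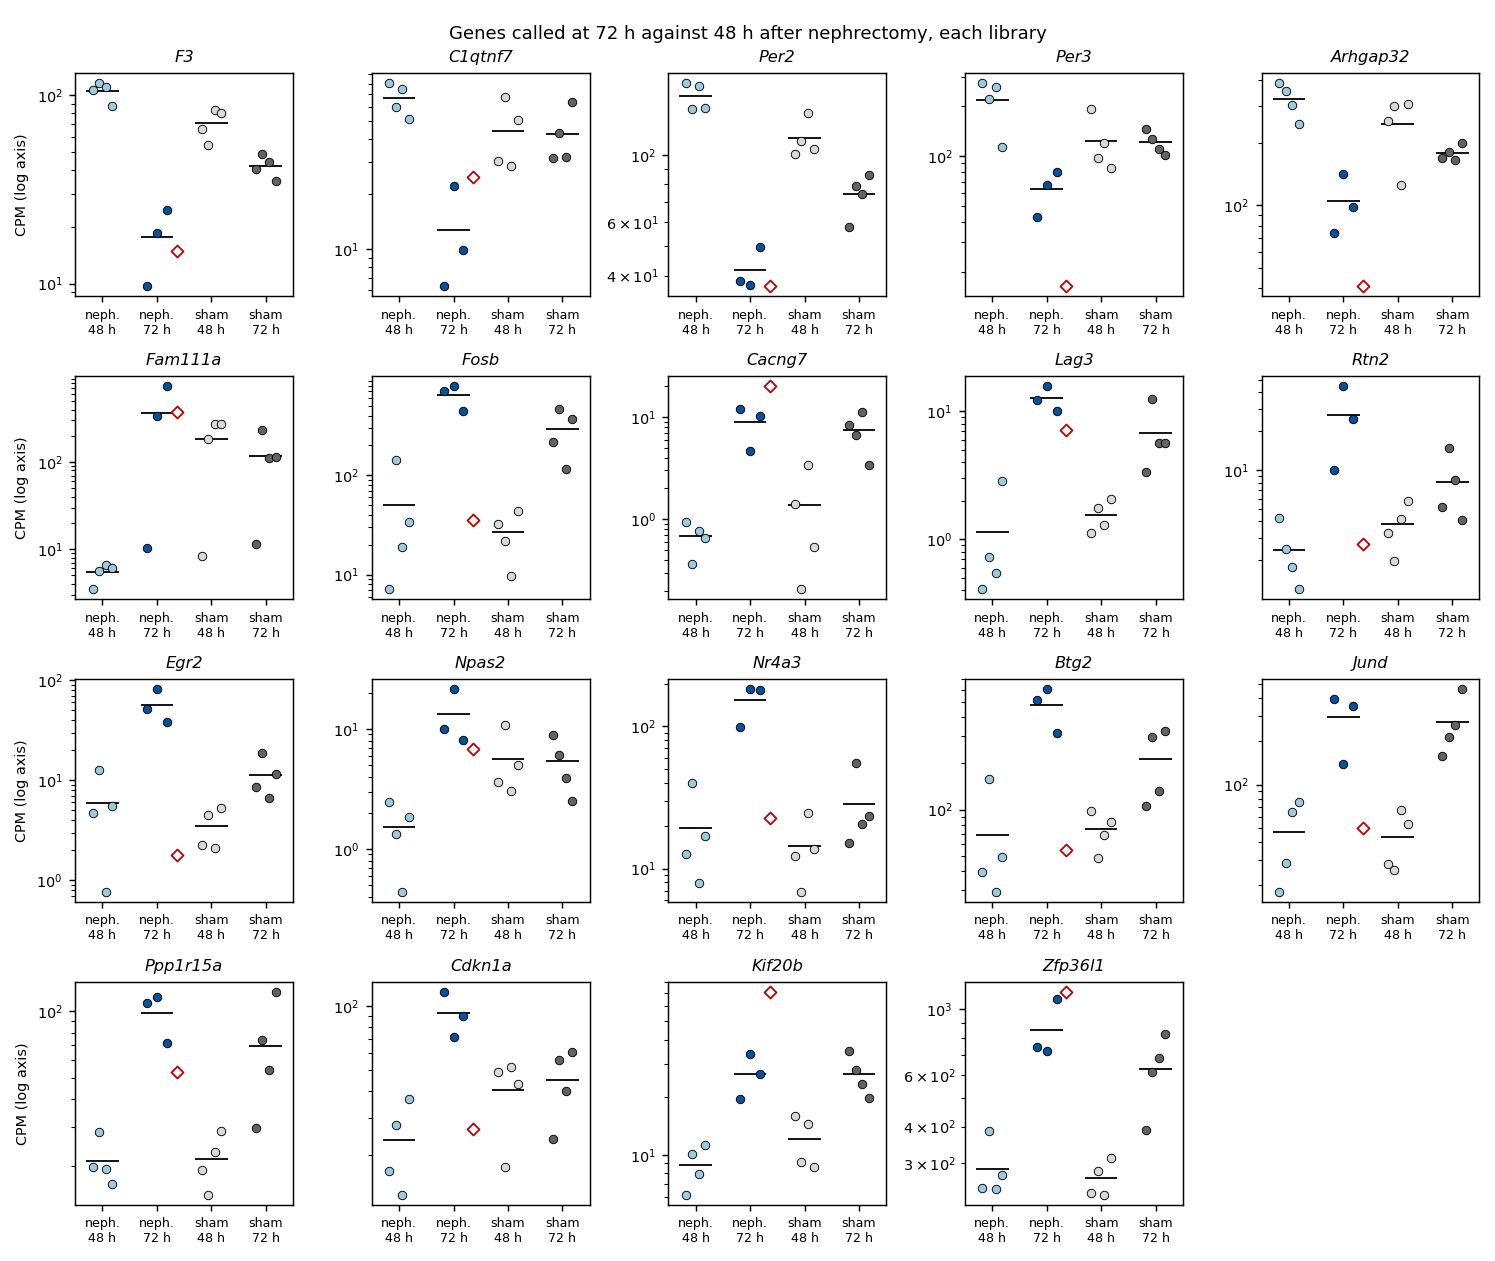
CPM (log axis) of 19 of the 20 genes that passed the test, 1 panel per gene, for nephrectomy 48 h (n = 4), nephrectomy 72 h (n = 3), sham 48 h (n = 4) and sham 72 h (n = 4). Points are libraries, black lines are means, and the open red diamond is the 72 h library that was left out. In each panel the 3 libraries of 72 h after nephrectomy lie wholly above or wholly below the 4 of 48 h.

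F3 encodes tissue factor, the cell-surface receptor that starts the extrinsic coagulation pathway and is made by podocytes and perivascular cells. It stood at 107, 116, 111 and 87.8 CPM in the 48 h libraries and at 9.73, 18.6 and 24.7 CPM at 72 h. The lowest library of 48 h was thus more than 3 times the highest of 72 h, and the left-out library, at 14.9 CPM, lay within the 72 h range. The fitted log2 difference was -2.59 ± 0.30 (SE; adjusted p = 0.000332). Sham glomeruli held 54.2 to 83.8 CPM at 48 h and 35.2 to 48.8 CPM at 72 h, a log2 difference of -0.75 ± 0.25 that did not pass (adjusted p = 0.0891). The difference between both time courses was -1.84 ± 0.37 and did not pass either (unadjusted p = 6.99e-05, adjusted p = 0.235). F3 passed in all 7 fits that leave out 1 nephrectomy library.

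Per2, a repressor of the core clock that accumulates with a daily rhythm, stood at 173, 143, 169 and 143 CPM at 48 h and at 38.4, 37.3 and 49.6 CPM at 72 h. The libraries within each time lay close together and the groups were far apart, with the left-out library at 37.0 CPM. On the log2 scale the difference was -1.91 ± 0.24 (adjusted p = 0.000599), and it passed in all 7 fits without 1 nephrectomy library. Per2 was 101 to 138 CPM at 48 h after sham surgery and 57.8 to 85.9 CPM at 72 h, so the sham groups did not overlap either. That log2 difference of -0.62 ± 0.21 did not pass (adjusted p = 0.09), and the difference of -1.30 ± 0.31 between both time courses did not pass (adjusted p = 0.596). In S1 proximal tubules after nephrectomy the log2 difference of Per2 was -1.53 ± 0.28 (adjusted p = 0.0717).

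Per3, another Period protein of the clock, stood at 274, 220.2, 260.3 and 113 CPM at 48 h and at 42.5, 66.8 and 80.3 CPM at 72 h. Replicate 4 was the low library of 48 h, still above all of 72 h, and the left-out library held 16.4 CPM. The log2 difference was -1.78 ± 0.34 (adjusted p = 0.0309). Sham values overlapped, at 84.0 to 191 CPM and 102 to 146 CPM, with a log2 difference of -0.02 ± 0.29. Without 48 h replicate 1, 2 or 3 the adjusted p of Per3 was 0.145, 0.0746 or 0.115, and without 72 h replicate 1 or 4 it was 0.192 or 0.0872.

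Npas2, which can take the place of Clock as the partner of Arntl in the activating dimer of the clock, was the clock gene that rose. It was scarce at 48 h, at 2.48, 1.34, 0.441 and 1.86 CPM, and stood at 10.05, 21.4 and 8.13 CPM at 72 h. The groups did not overlap, and the left-out library, at 6.86 CPM, also lay above the 48 h range. In the fit the log2 difference was 3.11 ± 0.57 (adjusted p = 0.0285), against -0.06 ± 0.50 after sham surgery, and the difference between both did not pass (3.17 ± 0.76, adjusted p = 0.648). Its call was lost in each of the 7 fits that leave out 1 nephrectomy library: the adjusted p was 0.0964, 0.0908, 0.115 and 0.0507 without 48 h replicates 1 to 4, and 0.058, 0.0512 and 0.0535 without 72 h replicates 1, 2 and 4.

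The promoter of Per2 is shown because the gene passed in every fit without 1 library and because its known control elements are short and named. In the RefSeq table (build GRCr8), 16 of the 22 genes called after nephrectomy or for the difference between surgeries had an entry, of which 11 rose and 4 fell after nephrectomy. The 250 bases before the start of Per2 lie on the minus strand at chr9:99496994-99497243. Capitals mark a D-box, TTATGTAA, 192 bases before the start, the element bound by the clock proteins Dbp, Tef and Nfil3. The letters were searched on both strands.

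Per2: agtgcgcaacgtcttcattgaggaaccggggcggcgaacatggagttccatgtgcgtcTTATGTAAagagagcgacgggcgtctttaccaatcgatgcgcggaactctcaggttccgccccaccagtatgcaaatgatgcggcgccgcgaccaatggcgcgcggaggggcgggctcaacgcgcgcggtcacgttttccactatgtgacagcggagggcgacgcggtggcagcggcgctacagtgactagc

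A D-box was in 0.828% of the 33469 promoters of that length, in 1 of the 4 genes that fell and in 0 of the 11 that rose. The E-box CACGTG, at which Arntl and its partner act, was in 5.59% of all promoters and in 0 of those 15. Only these exact letters were searched. The Per2 window holds cacgtt, which differs in its last letter and was neither counted nor marked, so variant E-boxes are not covered. A match describes the letters in this window and is not a measured binding site.

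Of the 17 clock genes tested, 1 rose (Npas2) and 2 fell (Per2 and Per3), against 0.0743% and 0.0248% of all genes. At an unadjusted p under 0.05, 4 were higher and 5 lower, against 7.61% and 6.72% of all genes. The list median was -0.43 after nephrectomy (-0.17 without 72 h replicate 2 and -0.80 without 72 h replicate 4) and -0.02 after sham surgery. The 4 higher were Npas2, Nfil3, Arntl and Per1, and the 5 lower were Per2, Per3, Tef, Cry1 and Nr1d2. Those that did not pass were chosen for naming after their values were seen. Nfil3, a repressor at D-boxes, was at 4.02, 2.43, 5.40 and 7.97 CPM at 48 h and at 13.6, 23.6 and 26.2 CPM at 72 h, with no overlap (log2 difference 2.08 ± 0.45, adjusted p = 0.0767). Tef, an activator at D-boxes, was at 149.5, 121, 124 and 72.6 CPM and then at 30.0, 45.6 and 32.2 CPM, again with no overlap (-1.70 ± 0.38, adjusted p = 0.0782). Arntl, the central activator, was at 6.60, 8.16, 5.51 and 12.1 CPM and then at 23.9, 31.4 and 16.9 CPM (1.58 ± 0.44, adjusted p = 0.134). These 3 genes separated the times after nephrectomy without passing the test.

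After sham surgery the same clock genes took other values. Arntl had a log2 difference of -1.47 between 72 h and 48 h (adjusted p = 0.0591), Nfil3 of -1.03 (adjusted p = 0.145) and Dbp of 1.72 (adjusted p = 0.089), whereas Dbp was at -0.85 after nephrectomy (adjusted p = 0.539). For 10 of the 17 clock genes the difference between both time courses had an unadjusted p under 0.05, against 2.35% of all genes. It passed the adjusted threshold for 0 of the 17. The smallest p-values belonged to Arntl, at 3.05 ± 0.61, and Nfil3, at 3.11 ± 0.62 (adjusted p = 0.235 for both). Clock itself was at 260.4 CPM on average at 48 h and 194 CPM at 72 h (log2 difference -0.43 ± 0.33), and Cry2 at 82.8 and 83.3 CPM (0.01 ± 0.32).

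**Figure D2:**
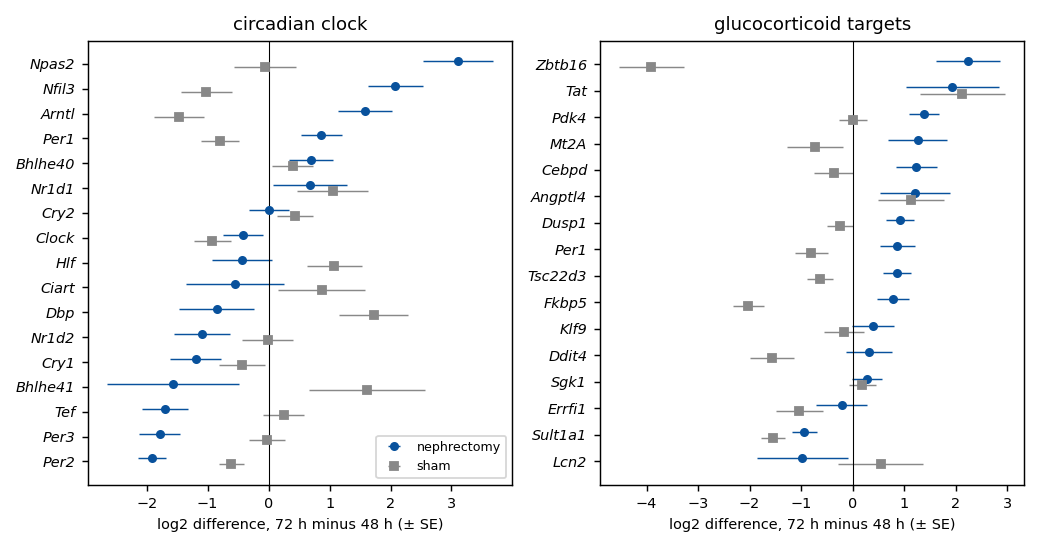
Log2 difference of 72 h minus 48 h with its SE for each tested clock gene and glucocorticoid target, after nephrectomy (blue circles) and after sham surgery (grey squares), from 1 fit of 15 libraries. Per2 and Per3 lie at -1.91 and -1.78 after nephrectomy, and Zbtb16 and Fkbp5 lie on opposite sides of 0 in the 2 surgeries.

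C1qtnf7, a secreted protein of the C1q and TNF related family, stood at 80.2, 60.0, 75.2 and 51.6 CPM at 48 h and at 6.32, 22.1 and 9.95 CPM at 72 h. The groups were well apart, and the left-out library, at 24.7 CPM, lay just above the 72 h range. On the log2 scale the difference was -2.37 ± 0.40 (adjusted p = 0.017). Sham libraries overlapped at 28.6 to 67.3 CPM and 31.3 to 63.5 CPM (-0.06 ± 0.34). Arhgap32, a GTPase-activating protein, stood at 384, 353, 304 and 245 CPM and then at 73.5, 141 and 98.7 CPM, and the left-out library was lower still, at 41.1 CPM. Its log2 difference was -1.62 ± 0.30 (adjusted p = 0.0306), and after sham surgery -0.47 ± 0.27 (adjusted p = 0.273). The call of C1qtnf7 was lost without 48 h replicate 1 or 3 (adjusted p = 0.0964 and 0.0735) and without 72 h replicate 1 or 4 (0.0959 and 0.101). That of Arhgap32 was lost without 48 h replicates 1, 2 or 3 (0.145, 0.0813 and 0.106) and 72 h replicates 1 or 4 (0.163 and 0.157).

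The next genes by p on the lower side did not pass. Hyal1, a lysosomal hyaluronidase, was at 127, 102, 97.6 and 107 CPM at 48 h and at 48.5, 51.1 and 37.3 CPM at 72 h (log2 difference -1.24 ± 0.25, adjusted p = 0.0585). In sham glomeruli Hyal1 fell as well and passed, with a log2 difference of -1.63 (adjusted p = 0.00769). The difference between both time courses was 0.38 ± 0.33 and did not pass (unadjusted p = 0.26). Rnf2, a catalytic subunit of Polycomb repressive complex 1, was at 129, 121, 125 and 113 CPM and then at 46.6, 59.1 and 35.8 CPM (adjusted p = 0.0583). Nmbr, the neuromedin B receptor, spread from 10.8 to 75.9 CPM at 48 h and was at 0.675, 3.69 and 4.81 CPM at 72 h (-3.60 ± 0.73, adjusted p = 0.0583). None of the 3 overlapped between times.

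Of 27 immediate early genes tested, 5 rose at 72 h after nephrectomy and 0 fell, against 0.0743% and 0.0248% of all genes. At an unadjusted p under 0.05, 21 of the 27 were higher, against 7.61% of all genes. Their 72 h libraries lay above all 48 h libraries for 23 of the 27, against 6.83% of all genes. The list median was 1.54 after nephrectomy and 1.01 after sham surgery, where 7 of the 27 rose (Jund, Fosb, Egr3, Nr4a2, Fos, Junb and Egr1) and Klf2 fell. Among all genes 0.739% passed higher and 1.23% lower after sham surgery. Per library, the mean log2 CPM of the list was 4.60, 5.73, 4.77 and 5.46 at 48 h and 6.95, 7.06 and 6.68 at 72 h. The left-out library, at 4.73, lay within the 48 h range, and with it put back the list median was 1.24 and 0 of the 27 passed.

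Fosb, a subunit of the AP-1 transcription factor, stood at 7.22, 142, 19.2 and 34.0 CPM at 48 h and at 706, 788 and 447 CPM at 72 h. Replicate 2 was the high library of 48 h, and the left-out library of 72 h, at 35.5 CPM, lay within the 48 h range. The log2 difference was 3.68 ± 0.68 (adjusted p = 0.0285). After sham surgery Fosb rose as well, from 9.81 to 43.9 CPM at 48 h to 117 to 463 CPM at 72 h (3.43 ± 0.66, adjusted p = 0.0318), and the difference between both was 0.24 ± 0.88. Jund, another AP-1 subunit, stood at 18.05, 28.7, 64.2 and 75.6 CPM and then at 394, 139 and 354 CPM, without overlap, and the left-out library was at 50.1 CPM. Its log2 difference was 2.66 ± 0.47 (adjusted p = 0.0217), as it was after sham surgery (2.66 ± 0.46, adjusted p = 0.0162). The sham call of each gene held in 4 of the 8 fits that leave out 1 sham library (highest adjusted p 0.114 for Fosb and 0.0853 for Jund).

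Egr2, a zinc finger transcription factor, stood at 4.74, 12.5, 0.772 and 5.57 CPM at 48 h and at 51.4, 81.3 and 37.8 CPM at 72 h, with the left-out library at 1.79 CPM. Every 72 h library in the test lay above the 48 h range, by a log2 difference of 3.28 ± 0.54 (adjusted p = 0.015). Sham values were 2.09 to 5.27 CPM and 6.65 to 18.5 CPM (1.67 ± 0.51, adjusted p = 0.0742). Nr4a3, an orphan nuclear receptor, stood at 12.6, 40.3, 7.94 and 16.8 CPM and then at 98.7, 183 and 182 CPM, while the left-out library was at 22.7 CPM. Its log2 difference of 2.99 ± 0.50 passed (adjusted p = 0.015), and that after sham surgery, 1.01 ± 0.46, did not (adjusted p = 0.182). For neither gene did the difference between both surgeries pass (Egr2 1.61 ± 0.73 and Nr4a3 1.99 ± 0.66, adjusted p = 1 for both).

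Btg2, an antiproliferative gene that is also a target of p53, stood at 39.4, 157, 29.4 and 49.5 CPM at 48 h and at 511, 604 and 314 CPM at 72 h. Replicate 2 was again the high library of 48 h, and the left-out library was at 54.6 CPM. The fitted log2 difference was 2.79 ± 0.48 (adjusted p = 0.017) after nephrectomy and 1.51 ± 0.44 (adjusted p = 0.065) after sham surgery. Fos and Egr1, widely used markers of the class, did not pass after nephrectomy: Fos was at 20.1, 128, 32.0 and 61.3 CPM and then at 352, 406 and 188 CPM (2.39 ± 0.55, adjusted p = 0.0853). Egr1 was at 125, 491, 137 and 193 CPM and then at 1062, 1154 and 505 CPM (1.94 ± 0.46, adjusted p = 0.0947). Neither overlapped between times, and both passed after sham surgery (Fos 2.01, adjusted p = 0.0491, and Egr1 1.69, adjusted p = 0.0496). Those sham calls held in 1 (Fos) and 2 (Egr1) of the 8 fits without 1 sham library.

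The calls of these genes depended on single libraries, although their differences kept their sign. Without 48 h replicate 1 the adjusted p of Fosb, Egr2 and Nr4a3 was 0.0964 and that of Jund and Btg2 0.104. Without 72 h replicate 1 it was 0.0959 for Fosb and Jund, 0.0564 for Egr2 and 0.0701 for Btg2. Without 48 h replicate 3 it was 0.126 for Fosb, 0.0735 for Nr4a3 and Jund and 0.0946 for Btg2. Calls were also lost without 72 h replicate 4 for Fosb and Nr4a3 (0.0646) and Jund (0.0938), without 48 h replicate 4 for Fosb (0.0702) and Btg2 (0.0507), and without 48 h replicate 2 for Jund (0.0813).

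Promoters of 4 of the genes that rose are shown because they hold an element known from immediate early control. Capitals mark the cyclic AMP response element TGACGTCA in Jund (chr16:18769772-18770021), Btg2 (chr13:48087691-48087940) and Ppp1r15a (chr1:105139597-105139846), and a CArG box, the element bound by serum response factor, in Egr2 (chr20:21054442-21054691). All 4 are on the minus strand of GRCr8 and printed 5′ to 3′ along the gene, as the 250 bases before the start.

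Jund: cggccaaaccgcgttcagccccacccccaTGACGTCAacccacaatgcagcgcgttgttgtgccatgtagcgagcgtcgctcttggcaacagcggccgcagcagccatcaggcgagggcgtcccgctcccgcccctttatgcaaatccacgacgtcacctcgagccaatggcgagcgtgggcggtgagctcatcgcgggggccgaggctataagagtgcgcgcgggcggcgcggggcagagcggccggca
Btg2: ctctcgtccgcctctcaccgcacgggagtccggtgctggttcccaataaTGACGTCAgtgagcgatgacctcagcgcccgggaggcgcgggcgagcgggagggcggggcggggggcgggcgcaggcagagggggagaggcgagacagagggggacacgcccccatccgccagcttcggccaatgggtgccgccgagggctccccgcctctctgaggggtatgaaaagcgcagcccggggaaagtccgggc
Ppp1r15a: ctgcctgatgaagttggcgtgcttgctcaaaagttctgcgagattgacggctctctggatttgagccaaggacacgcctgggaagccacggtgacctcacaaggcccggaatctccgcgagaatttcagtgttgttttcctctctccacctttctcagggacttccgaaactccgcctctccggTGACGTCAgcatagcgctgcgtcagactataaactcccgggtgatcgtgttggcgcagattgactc
Egr2: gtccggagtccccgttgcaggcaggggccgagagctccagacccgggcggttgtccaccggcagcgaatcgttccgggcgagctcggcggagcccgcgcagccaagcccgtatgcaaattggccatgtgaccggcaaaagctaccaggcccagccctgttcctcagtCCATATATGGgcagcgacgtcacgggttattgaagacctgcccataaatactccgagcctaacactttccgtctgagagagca

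The cyclic AMP response element lies 221 bases before the start in Jund, 201 in Btg2 and 66 in Ppp1r15a, and the CArG box lies 83 bases before the start in Egr2. The first was in 3 of the 11 genes that rose and in 1.59% of all promoters, and the CArG box was in 2 of the 11 (Egr2 and Kif20b) and in 1.5%. The AP-1 element TGACTCA was in 0 of the 11 and in 4.05%.

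Ppp1r15a, also known as GADD34, directs a phosphatase to the translation factor eIF2 alpha after stress. It stood at 19.8, 28.6, 19.5 and 16.7 CPM at 48 h and at 108, 115 and 71.6 CPM at 72 h. The groups were well separated, and the left-out library, at 53.4 CPM, lay between them. On the log2 scale the difference was 2.22 ± 0.36 (adjusted p = 0.015), and it also rose after sham surgery (1.69 ± 0.34, adjusted p = 0.0318). Zfp36l1, a protein that binds AU-rich elements and destabilises messengers, stood at 247, 386, 246 and 274 CPM and then at 747, 720.2 and 1083 CPM, with 1146 CPM in the left-out library. Its log2 difference was 1.56 ± 0.27 (adjusted p = 0.017), and 1.23 ± 0.25 after sham surgery (adjusted p = 0.0318). The sham calls of both genes held in 4 of the 8 fits without 1 sham library. Without 48 h replicate 1 or 3 or 72 h replicate 1, the adjusted p was 0.0964, 0.0735 and 0.0564 for Ppp1r15a and 0.104, 0.113 and 0.0566 for Zfp36l1, and without 72 h replicate 4 it was 0.105 for Zfp36l1.

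Cdkn1a encodes p21, an inhibitor of cyclin-dependent kinases. It stood at 16.9, 27.8, 13.1 and 36.7 CPM at 48 h and at 116, 71.8 and 89.7 CPM at 72 h, without overlap, while the left-out library, at 26.5 CPM, lay within the 48 h range. The log2 difference was 1.97 ± 0.38 (adjusted p = 0.0389). Sham libraries overlapped, at 17.6 to 51.6 CPM and 24.0 to 61.0 CPM (0.16 ± 0.35). The difference of 1.81 ± 0.52 between both surgeries had an unadjusted p of 0.00204 and did not pass (adjusted p = 1). The call of Cdkn1a was lost without 48 h replicates 1, 2 or 3 (adjusted p = 0.238, 0.0813 and 0.156) and without 72 h replicates 1 or 4 (0.163 and 0.0938). Among the 12 G1 cyclins and CDK inhibitors tested Cdkn1a was the one that passed, and the list median was 0.06.

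Kif20b, a kinesin of cytokinesis, stood at 6.19, 10.1, 7.94 and 11.3 CPM at 48 h and at 19.7, 33.5 and 26.4 CPM at 72 h. The groups did not overlap, and the left-out library held more than any of them, at 71.0 CPM. In the fit the log2 difference was 1.58 ± 0.31 (adjusted p = 0.0413) after nephrectomy and 1.14 ± 0.29 (adjusted p = 0.0471) after sham surgery, a sham call that held in 3 of 8 fits without 1 sham library. It lost the nephrectomy call in 6 of the 7 fits without 1 nephrectomy library, with an adjusted p of 0.238, 0.0813 and 0.156 without 48 h replicates 1, 2 and 3 and of 0.0564, 0.0541 and 0.103 without 72 h replicates 1, 2 and 4.

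Of the 44 genes of DNA replication and mitosis tested, 0 passed after nephrectomy. At an unadjusted p under 0.05, 25 were higher and 0 lower, against 7.61% and 6.72% of all genes. For 10 of the 44 the 72 h libraries lay above all of 48 h, against 6.83% of all genes. The list median was 0.95 after nephrectomy and 0.74 after sham surgery, where Bub1b, a spindle checkpoint kinase, rose. Mki67, which marks cycling cells, was at 24.9, 10.8, 34.8 and 89.8 CPM at 48 h and at 64.3, 123 and 102 CPM at 72 h (log2 difference 1.26 ± 0.44, adjusted p = 0.212). Top2a, the topoisomerase of dividing cells, was at 17.0, 5.60, 29.5 and 71.0 CPM and then at 38.1, 123 and 104 CPM (1.52 ± 0.55, adjusted p = 0.227). For both genes 48 h replicate 4 was above 72 h replicate 1, so the groups overlapped. Cenpe, a kinetochore motor, was at 17.0, 20.3, 27.9 and 37.5 CPM and then at 46.9, 91.6 and 65.5 CPM, without overlap (1.41 ± 0.29, adjusted p = 0.0654). The left-out library was the highest of the 8 for these genes, at 172 CPM for Mki67, 211 CPM for Top2a and 265 CPM for Cenpe.

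Fam111a, a serine protease of DNA replication and antiviral defence, had the largest log2 difference of the 20 genes and an uneven pattern. It stood at 3.51, 5.60, 6.50 and 6.12 CPM at 48 h and at 10.2, 334 and 742 CPM at 72 h, with 375 CPM in the left-out library. The libraries of the 48 h and 72 h groups lay either between 3.51 and 11.5 CPM or between 111 and 742 CPM. Replicate 1 was the low library of each sham group too, at 8.39 CPM against 183 to 277 CPM at 48 h and at 11.5 CPM against 111 to 234 CPM at 72 h. On the log2 scale the difference was 6.06 ± 1.09 after nephrectomy (adjusted p = 0.0229) and -0.65 ± 0.85 after sham surgery. The value is uncertain. RefSeq places a gene named as its paralog, Fam111al1, beside Fam111a. Whether the authors' counting split reads between the copies was not tested, nor was the cause of the uneven pattern. The call was lost without any 1 library of 48 h (adjusted p = 0.145, 0.0813, 0.115 and 0.0541 for replicates 1 to 4) and without 72 h replicate 4 (0.0938).

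Lag3, an inhibitory receptor of lymphocytes, stood at 0.413, 0.730, 0.551 and 2.84 CPM at 48 h and at 12.1, 15.6 and 9.95 CPM at 72 h, and the left-out library was at 7.16 CPM. The log2 difference was 3.46 ± 0.58 (adjusted p = 0.0163), and it also rose after sham surgery (2.11 ± 0.54, adjusted p = 0.0484), a call that held in 3 of the 8 fits without 1 sham library. Of the 23 immune markers 0 passed and 19 had a log2 difference above 0, as did 11393 of all 20176 genes. At an unadjusted p under 0.05, 2 of these markers were higher and 1 was lower, against 7.61% and 6.72% of all genes. The median of the immune markers was 0.47, and -0.28 without 72 h replicate 1. Ptprc, the common leukocyte antigen, was at -0.30, Cd68, a marker of macrophages, was at 1.11 ± 0.39 (adjusted p = 0.219), and the mean log2 CPM of the list was 3.28 to 4.64 at 48 h and 3.75 to 5.42 at 72 h. The call of Lag3 was lost without 48 h replicates 1, 2 or 3 (adjusted p = 0.0964, 0.054 and 0.0946) and without 72 h replicate 1 (0.0564).

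Rtn2 and Cacng7, which also rose, are best known from nerve and muscle. Rtn2, a reticulon of the endoplasmic reticulum membrane, stood at 4.23, 2.43, 1.76 and 1.20 CPM at 48 h and at 10.01, 44.7 and 25.04 CPM at 72 h (3.46 ± 0.54, adjusted p = 0.0145), with the left-out library at 2.68 CPM. Cacng7, an auxiliary subunit of calcium channels and AMPA receptors, stood at 0.928, 0.365, 0.772 and 0.655 CPM and then at 11.9, 4.67 and 10.1 CPM (3.68 ± 0.68, adjusted p = 0.0285). Neither overlapped between times. Cacng7 also rose after sham surgery (2.48, adjusted p = 0.0457), in 3 of the 8 fits without 1 sham library as well, and Rtn2 did not pass there (1.10, adjusted p = 0.174). The call of Rtn2 was lost without 48 h replicate 3 (adjusted p = 0.0735). That of Cacng7 held in 1 of the 7 fits, with an adjusted p of 0.104, 0.0915, 0.115 and 0.056 without 48 h replicates 1 to 4 and of 0.132 and 0.0938 without 72 h replicates 1 and 4.

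The interval after sham surgery gives the same times without loss of a kidney, but not time alone. The hour of collection is not given for it either. The share of unique reads in genes was 21.4 to 40.1% at 48 h and 13.3 to 35.1% at 72 h in these sham libraries. Loop of Henle markers differed between them as given above. After sham surgery 398 genes passed (1.97%), 149 higher at 72 h (0.739%) and 249 lower (1.23%). That count rested on single libraries: it was 5, 7, 1352 and 9 without sham 48 h replicates 1 to 4, and 438, 623, 3 and 692 without sham 72 h replicates 1 to 4. In the 4 fits with 3 to 9 calls, 0 genes passed higher, so every rise after sham surgery named here was lost there, and with nephrectomy 72 h replicate 3 put back 0 genes passed in either direction. The overlaps below rest on the 398. The nephrectomy and sham comparisons share no library. Both come from the same fit of 15 libraries, with a shared estimate of the spread, so their calls are not independent. With only its own 8 libraries the sham comparison gave 27 calls. Of the 20 genes called after nephrectomy, 18 had the same sign after sham surgery and 8 passed there too, which is 40% of the nephrectomy calls and 2.01% of the sham calls. Of the 398 sham calls 383 had the same sign after nephrectomy. The share of all genes with equal signs was not counted, so these sign counts have no background beside them. The median over all genes was above 0 in both comparisons, at 0.12 after nephrectomy and 0.22 after sham surgery. Across all genes the log2 differences correlated with a Pearson r of 0.599, a description over genes that are not independent replicates. The 2 counts come from 3 against 4 and from 4 against 4 libraries, and a higher count does not show a larger difference.

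**Figure D3:**
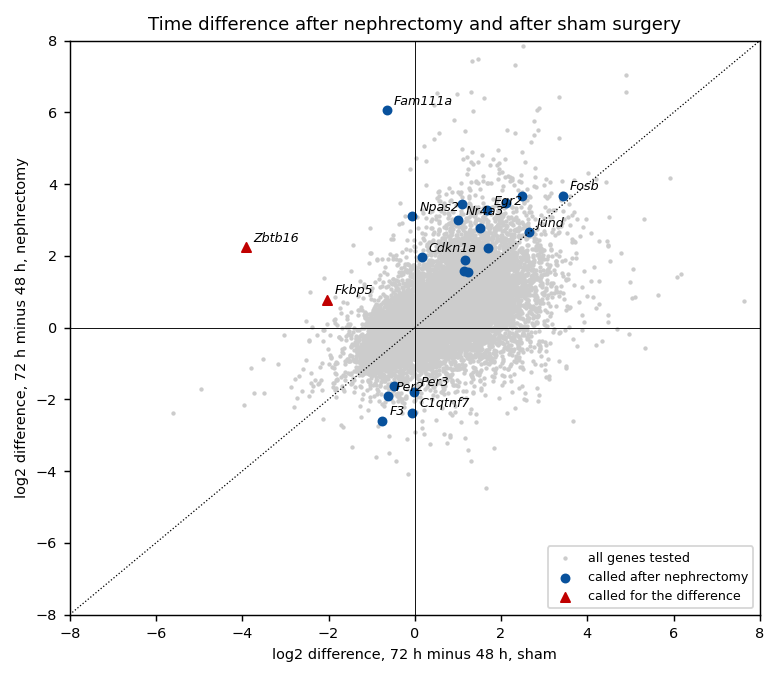
Log2 difference of 72 h minus 48 h after sham surgery (horizontal) against that after nephrectomy (vertical) for 20176 genes. Blue points are the 20 genes that passed after nephrectomy, red triangles the 2 genes whose time differences passed as unequal, and the dotted line marks equal differences. Most blue points lie on the same side of 0 on both axes, and both triangles lie left of 0 and above it.

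The direct test of whether the 72 h minus 48 h difference was unequal in the 2 surgeries passed for 2 genes (0.00991%). They were Zbtb16 and Fkbp5, both classical targets of the glucocorticoid receptor. At an unadjusted p under 0.05 the test gave 474 genes (2.35%), and 0 of the 20 genes called after nephrectomy were among the 2. Zbtb16, a zinc finger repressor, stood at 8.87, 12.8, 2.76 and 2.08 CPM at 48 h and at 37.7, 16.4 and 39.8 CPM at 72 h after nephrectomy, with 1.19 CPM in the left-out library. After sham surgery it went the other way, from 114, 27.3, 41.0 and 14.7 CPM to 4.65, 1.75, 4.88 and 1.57 CPM. Neither pair of groups overlapped. The nephrectomy difference of 2.24 ± 0.61 did not pass (adjusted p = 0.131), the sham difference of -3.90 ± 0.63 did (adjusted p = 0.0113), and their difference was 6.14 ± 0.87 (adjusted p = 0.0105). The sham call of Zbtb16 was lost without sham 48 h replicate 1 (adjusted p = 0.0549) or 72 h replicate 3 (0.07). With the left-out library put back that difference was 5.77 ± 1.13 and did not pass (adjusted p = 0.47).

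Fkbp5, a co-chaperone that restrains the glucocorticoid receptor, stood at 71.7, 48.0, 60.3 and 39.5 CPM at 48 h and at 102, 67.5 and 114 CPM at 72 h after nephrectomy. Replicate 2 of 72 h lay within the 48 h range, so the groups overlapped, and the left-out library was at 124 CPM. Sham libraries held 170.0, 60.9, 122 and 90.3 CPM at 48 h and 27.6, 22.1, 35.7 and 23.1 CPM at 72 h. The fitted log2 difference was 0.78 ± 0.31 after nephrectomy (adjusted p = 0.259) and -2.03 ± 0.30 after sham surgery (adjusted p = 0.00769), and their difference of 2.81 ± 0.43 passed (adjusted p = 0.0142). It missed the threshold without nephrectomy 48 h replicate 2 (adjusted p = 0.0689) or 4 (0.0658), nephrectomy 72 h replicate 1 (0.0904) or 4 (0.0776) or sham 72 h replicate 2 (0.0503), and with the left-out library put back (0.0547).

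Of the 16 glucocorticoid targets tested, 0 passed after nephrectomy. At an unadjusted p under 0.05, 9 were higher and 1 lower, against 7.61% and 6.72% of all genes. The list median was 0.86 after nephrectomy and -0.50 after sham surgery, where Zbtb16, Fkbp5 and Sult1a1 fell, as did 1.23% of all genes. The mean log2 CPM of the list was 4.39, 4.91, 4.34 and 4.26 at 48 h and 5.21, 5.06 and 5.15 at 72 h after nephrectomy, without overlap, and the left-out library, at 4.09, lay below all 4 of 48 h. After sham surgery it was 4.51 to 5.44 and 4.08 to 4.45. For 9 of the 16 the difference between surgeries had an unadjusted p under 0.05, against 2.35% of all genes. Pdk4, which restrains pyruvate dehydrogenase, was at 15.3, 24.6, 28.1 and 18.8 CPM and then at 38.5, 44.8 and 87.6 CPM (1.39 ± 0.30, adjusted p = 0.0705). Dusp1, a phosphatase of MAP kinases, had a log2 difference of 0.92 ± 0.27 (adjusted p = 0.154), and Tsc22d3, known as GILZ, one of 0.86 ± 0.27 (adjusted p = 0.17). Per1 is in this list and in the clock list, at 0.86 ± 0.34 (adjusted p = 0.254). Sgk1, a kinase induced by glucocorticoids and aldosterone, was at 0.28 ± 0.29 (adjusted p = 0.683).

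Stress and inflammatory lists gave no call after nephrectomy. Of 23 heat shock proteins and chaperones, 10 were higher and 0 lower at an unadjusted p under 0.05, against 7.61% and 6.72% of all genes. The list median was 0.79, against 0.16 after sham surgery. It was 0.31 without 72 h replicate 4. Hsp90ab1, a cytosolic HSP90, was at 477, 442, 458 and 431 CPM at 48 h and at 524, 777 and 1526 CPM at 72 h, without overlap (1.06 ± 0.36, adjusted p = 0.202). Atf4, the transcription factor of the integrated stress response, had a log2 difference of 0.92 ± 0.24 (adjusted p = 0.121). Of 30 chemokines and inflammatory genes, 9 were higher and 0 lower at an unadjusted p under 0.05, against the same shares of all genes. The median of these 30 was 0.66. Il1b, an inflammatory cytokine, was at 3.09 to 8.52 CPM at 48 h and at 89.3, 24.8 and 6.30 CPM at 72 h, so that replicate 4 lay within the 48 h range (2.85 ± 0.73, adjusted p = 0.114). Icam1, a leukocyte adhesion molecule, had a log2 difference of 1.19 ± 0.32 (adjusted p = 0.124).

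**Figure D4:**
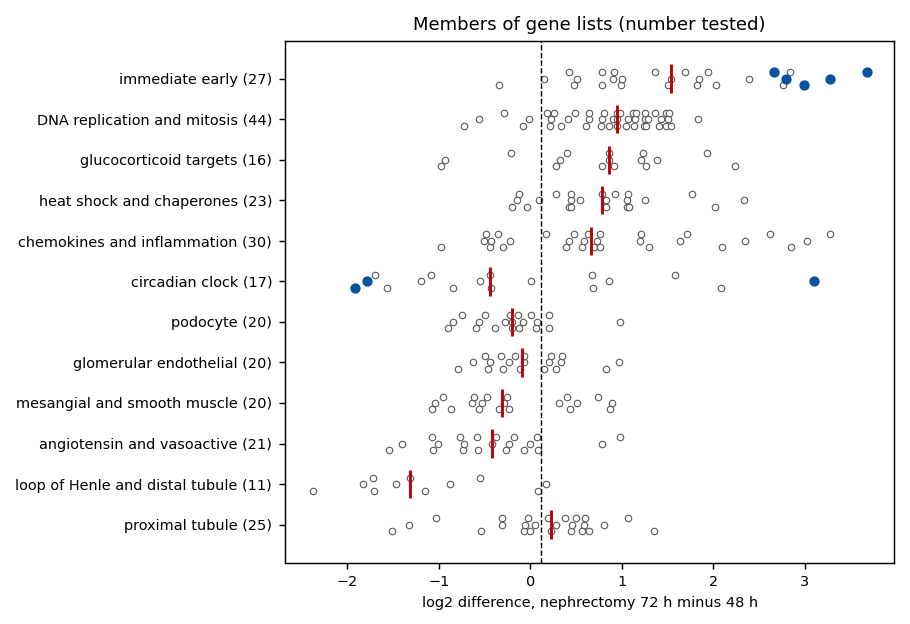
Log2 difference of 72 h minus 48 h after nephrectomy for each tested member of 12 gene lists. Filled points passed the test, red bars are list medians, and the dashed line is the median over all genes, 0.12. Immediate early genes lie to the right with a median of 1.54, and clock genes lie on both sides.

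The cell types of the glomerulus gave no call in either direction after nephrectomy. Among 20 podocyte genes the median was -0.20 (0.03 without 72 h replicate 1). At an unadjusted p under 0.05, 1 was higher and 3 were lower, against 7.61% and 6.72% of all genes. Nphs1, which encodes nephrin of the slit diaphragm, was at 1610.0, 2405, 2062 and 1242 CPM at 48 h and at 915, 2845 and 1964 CPM at 72 h, with overlap (0.06 ± 0.34, adjusted p = 0.947). Wt1, a transcription factor of podocytes, was at -0.50 ± 0.30. The 20 endothelial genes had a median of -0.09 (0.12 without 48 h replicate 4), with Kdr, the VEGF receptor, at -0.24 (adjusted p = 0.736). The 20 mesangial and smooth muscle genes had a median of -0.31, with Pdgfrb at -0.29 and Acta2 at -0.64.

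Genes of the angiotensin and vasoactive list also gave 0 calls of 21. Their median was -0.42 after nephrectomy and -0.45 after sham surgery. At an unadjusted p under 0.05, 5 were lower and 1 higher, against 6.72% and 7.61% of all genes. For 4 the 72 h libraries lay below all of 48 h, against 7.09% of all genes. Agtr1a, the angiotensin II receptor of mesangial cells, was at 262, 249, 192 and 250.4 CPM at 48 h and at 158, 92.1 and 90.9 CPM at 72 h (-1.07 ± 0.26, adjusted p = 0.106). The groups did not overlap, and the log2 difference after sham surgery was -0.86.

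Lists for growth of the tuft and for metabolism had medians of -0.23 to 0.27 and 0 calls each. The medians were -0.17 over 35 genes of the basement membrane and collagens, -0.06 over 26 of VEGF and angiopoietin signalling, and -0.14 over 33 growth factor ligands and receptors. Vegfa, the podocyte factor that maintains the endothelium, was at 0.19, and Col4a1, a collagen of the basement membrane, at 0.54 (adjusted p = 0.492). The growth genes Myc and Ccnd1 were at 0.79 and 0.47. The medians were 0.27 over 46 cytosolic ribosomal proteins, -0.23 over 43 nuclear subunits of the respiratory chain, -0.04 over 18 enzymes of glycolysis and 0.04 over 25 genes of cholesterol synthesis and uptake.

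Loop of Henle and distal tubule markers had a median of -1.32 after nephrectomy with 0 of 11 called. After sham surgery it was -1.79 with 3 called lower, against 1.23% of all genes. Umod, made by the thick ascending limb, was at 373, 212, 287 and 0.218 CPM at 48 h and at 2.27, 119 and 2.32 CPM at 72 h after nephrectomy. Replicate 4 of 48 h and replicates 1 and 4 of 72 h were the low libraries, and the groups overlapped (-2.38 ± 1.23, adjusted p = 0.38). Summed, the list held 1329 to 2820 CPM at 48 h and 724 to 2014 CPM at 72 h after nephrectomy. Its total thus stayed well above 0 in the libraries with little Umod, and not every member follows Umod. Leaving out 1 library gave medians of the list from -2.67 (without 72 h replicate 2) to -0.49 (without 48 h replicate 1). In the fit with that marker level as a covariate 8 genes passed higher and 3 lower, all among the 20. Fosb, Jund, Cdkn1a, Per3, Arhgap32, Kif20b, Zfp36l1, Cacng7 and Fam111a did not pass there, with adjusted p-values of 0.0628 for Fam111a to 0.117 for Per3. Their log2 differences there, beside those without the covariate, were 3.76 and 3.68 for Fosb, 5.95 and 6.06 for Fam111a, 3.69 and 3.68 for Cacng7, and 1.58 in both fits for Kif20b. They were 1.48 and 1.56 for Zfp36l1, -1.47 and -1.62 for Arhgap32, 1.75 and 1.97 for Cdkn1a, -1.39 and -1.78 for Per3, and 2.13 and 2.66 for Jund, so that Jund and Per3 moved most.

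In S1 proximal tubules of the same study, 8 libraries of nephrectomy at 48 h and 72 h, fitted together with 8 of sham surgery, were set beside the glomeruli. There 0 of 15338 genes passed (0%) with edgeR's test, while 4056 had an unadjusted p under 0.05 (26.4%) and DESeq2 called 2484. For some of the clock genes the log2 differences in S1 tubules were -1.53 (Per2), -1.71 (Per3), 2.36 (Npas2) and -1.41 (Tef). Each had the sign seen in glomeruli, and the other clock genes are not given for S1 tubules. Some genes named above had the opposite sign in S1 tubules. These included C1qtnf7 (3.81 ± 1.70, against -2.37 in glomeruli), Fos (-0.57 ± 1.26, against 2.39) and Fkbp5 (-0.77 ± 0.37, against 0.78). F3 was at -0.76 ± 0.50 there, Jund at 2.24 ± 0.73 and Cdkn1a at 1.10 ± 0.56, none past the threshold.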

How the data were processed

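RNA sequencing of rat glomeruli after nephrectomy or sham surgery was used as deposited by the authors, as read counts per gene and as RPKM values made from them. Per the submitters' processing notes, reads passed through Trimmomatic 0.32, STAR 2.4.0.1, SAMtools and HTSeq. Not given in the sources used here: the strand setting of the counting, the build and gene models, and versions for the last 2 tools. The NuGEN kit named in the labels was used for the glomeruli and S1 tubules. The 5 summary entries of HTSeq, unique reads outside genes among them (60.9 to 78.5% of unique reads in the 7 nephrectomy libraries), stayed out of library sizes and tests.

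Of 32545 genes, the 20176 kept by filterByExpr at a minimum count of 10 were tested with the quasi-likelihood F test of edgeR 4.0.16 in R 4.3.3, TMM scaling, 1 mean per group and Benjamini-Hochberg adjustment at 0.05. The common biological coefficient of variation was 0.485 on 11 residual degrees of freedom. SEs are the log2 difference divided by the square root of F. CPM values use TMM library sizes. The script was tested on simulated data. Alternatives used DESeq2 1.42.0, limma 3.58.1 (voom with sample quality weights on counts, and log2(RPKM + 1 or 0.1)), other scalings and filters, a replicate block, other sets of libraries and marker covariates. Differences on the RPKM scale are understated for low genes.

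The groups, lists and members were chosen with earlier results of these data known. Named genes were, at a mean of at least 5 CPM, the 12 largest differences per direction among those called, filled up to 8 by p, then the called interaction genes, the 4 members of smallest p of each list and a fixed set of markers. Kif20b, Zfp36l1 and Cacng7, and further list members, were named after their values were seen. Some genes, 1 of the 20 called among them, are not reported here. The 28 lists hold 647 symbols, of which 628 were found.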

Additional observations from a re-analysis of the deposited data

Results flagged for a closer look

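In groups of 4 libraries, 132 pairs of a named gene and a group were examined for 1 library far from the others, and 6 were found. Chance gives about 1 in 20. At 48 h after nephrectomy, Slc34a1, a phosphate transporter of the proximal tubule, was at 35.5 CPM in replicate 3 against 9.37 to 10.8 CPM in the others. In replicate 4 of the same group Umod was at 0.218 CPM against 212 to 373 CPM, and Aqp2, the water channel of the collecting duct, at 0 against 0.852 to 1.10 CPM. At 48 h after sham surgery, Fam111a was at 8.39 CPM in replicate 1 against 183 to 277 CPM, and Cdkn1a at 17.6 CPM in replicate 2 against 43.1 to 51.6 CPM. At 72 h after sham surgery, Umod was at 0 in replicate 4 against 4.83 to 6.59 CPM. The 3 libraries of 72 h after nephrectomy are too few for this check.

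For 2 genes the time difference after nephrectomy passed as unlike that after sham surgery, by 6.14 on the log2 scale for Zbtb16 and by 2.81 for Fkbp5.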

How the results depend on the processing

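No called value changed sign under any setting tried. The counts of genes past the threshold did move, and the cause was not tested. After nephrectomy the count of 20 became 500 with DESeq2, 1401 with limma voom with sample quality weights, 13 with log2(RPKM + 0.1), 87 without TMM factors, 77 without the filter on low counts, 161 with only the 7 libraries compared, 1 with all 23 glomerulus libraries, 2 with replicate 3 put back and 64 with the share of reads in genes as a covariate. With loop of Henle markers as a covariate, chosen after seeing the data, it was 11. The share of calls higher at 72 h was 75% in the test as reported, 86.2% without TMM factors (median of all genes 0.335), 55.8% with DESeq2, 38.8% with weighted voom (544 higher, 857 lower), 42.7% with the replicate block and 40.6% without 72 h replicate 2 (67 higher, 98 lower). For sham surgery the count of 398 became 1988 with DESeq2 (52.2% higher), 4449 with weighted voom (63.7%), 616 and 75 on the RPKM scale with pseudocounts of 1 and 0.1, 265 without TMM factors (77% higher, against 37.4%), 27 with its own 8 libraries and 0 with replicate 3 put back. For the difference between surgeries the count of 2 became 13 with DESeq2, 10 with weighted voom, 0 on both RPKM scales, 1 without TMM factors, 5 without the filter, 0 with all 23 libraries and 0 with replicate 3 put back. In S1 tubules it was 2484 with DESeq2 against 0.

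Leaving out 1 library gave 3 to 165 calls after nephrectomy, 3 to 1352 after sham surgery, 1 to 3 for the difference between surgeries and 0 to 3217 in S1 tubules. Per2 passed in all 15 other settings and F3 in 14 of them, with F3 at an adjusted p of 0.276 where it failed, all 23 libraries.

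A fit with the replicate number as a block gave 440 calls after nephrectomy (188 higher, 252 lower, the 20 among them), 1233 after sham surgery and 4 in S1 tubules. The libraries share only a number. The deviations of the 3 pairs of nephrectomy libraries correlated at -0.137 to 0.0961, none over 0.1, so the block was not used. Those of all 21 same-numbered pairs over the 4 groups, which the block also covers, correlated at -0.285 to 0.395. Library pairs within a group differed beyond sampling noise (smallest chi-square per degree of freedom 17.2). Depth limits low genes most: Npas2, Lag3 and Cacng7 rest on under 3 CPM in each 48 h library.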

Other observations

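Among the 20 genes called after nephrectomy, Fosb and Rtn2 are neighbours in RefSeq gene order. Their log2 differences were 3.68 and 3.46. All 20 symbols were found in the RefSeq table. The strand setting of the counting is not given, so reads of adjoining genes cannot always be told apart. Ercc1, on the other side of Fosb, did not pass, at -0.05. Beside Lag3, Cd4, the T cell co-receptor, was at 1.08 ± 0.44 (adjusted p = 0.273) and Ptms at 1.29 ± 0.65 (adjusted p = 0.367).

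Growth factor genes held several members that differed at an unadjusted p under 0.05 without passing, 3 higher and 6 lower of 33. Among all genes 7.61% were higher and 6.72% lower at that threshold. Tgfa, a ligand of the EGF receptor, averaged 49.0 CPM at 48 h and 23.1 CPM at 72 h after nephrectomy (log2 difference -1.08 ± 0.31, adjusted p = 0.141), against 0.35 after sham surgery. Bmp4 averaged 50.2 and 25.2 CPM (-0.997 ± 0.44) and Hgf 16.7 and 9.12 CPM (-0.89 ± 0.42). Tek, the angiopoietin receptor, was at -0.79 ± 0.30 after nephrectomy (adjusted p = 0.247) and passed after sham surgery (-1.13, adjusted p = 0.0445). Mt-co1, a subunit of cytochrome oxidase encoded by mitochondrial DNA, was at -0.98 ± 0.31 (adjusted p = 0.183). Of the 10 mitochondrial messengers tested 0 passed, and 1 was lower at an unadjusted p under 0.05. Their median was -0.16, with 4 of the 10 above 0, and it was 0.59 after sham surgery.

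The left-out library of 72 h lay on different sides for different genes. It lay near the other 72 h libraries for Per2 and F3, within the 48 h range for Fosb, Egr2, Jund, Nr4a3, Btg2 and Cdkn1a, and above all 7 libraries for Mki67, Top2a, Cenpe and Kif20b.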
